A study of Mus musculus with 6 samples.

Results

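The immediate early genes described here are Fos, Jun, Junb and Jund of the AP-1 family, Ier2, Ier3 and Ier5 of the IER group, Egr1 with its co-repressor gene Nab2, and Btg2. They were taken from a named list of 10 genes, and all 10 were found on the array through 14 probe sets annotated to a single symbol, out of 22690 probe sets and 12393 genes in all. The study measured expression on 6 Affymetrix mouse arrays of Ba/F3, a mouse cell line labelled as pro-B, which depends on interleukin 3 (IL3) unless an active kinase takes its place. The 3 lines had been transfected with the retroviral vector pMSCV, empty or expressing ETV6-PDGFRB or FIP1L1-PDGFRA, fusion genes of myeloid neoplasms whose products are constantly active receptor kinases. All were grown in DMEM with 10% serum. The empty-vector cells were kept in IL3, while those carrying either fusion had been selected in medium lacking it, so IL3 supply and selection cannot be told apart from the fusion gene in any comparison between lines. Cells of each line were harvested untreated or after 100 nM imatinib (Glivec), which blocks the PDGF receptor, ABL and KIT kinases, had been present for 4 h, and all cells were washed before RNA extraction. There was 1 array for each line and treatment. Whether a line was a clone or a pool is not given in the sources used here.

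Immediate early genes are switched on by growth factor and cytokine receptors without new protein synthesis, largely through the ERK cascade, serum response factor (SRF) and its ternary complex partners, and their short-lived messages fall quickly once the signal stops. FOS and JUN proteins pair to form AP-1, a transcription factor of proliferating cells. EGR1 is a zinc finger factor of the same early response, NAB2 binds EGR proteins and represses them, and BTG2 is an antiproliferative protein that binds the CCR4-NOT deadenylase.

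The deposited values are MAS5 signals, which are intensities on a linear scale. The 50th percentile of each array was taken, and signals below 20.1, the median of these, were treated as lying at a floor, which is a working limit and not a detection call. Where only 1 array of a ratio exceeded the floor, the ratio is a bound, given with the words at least. The trimmed mean signal was 100.0 on every array and 49.8% to 50.6% of probe sets exceeded the floor, and with 6 arrays the precision is limited throughout. Probe sets at the 3' end over those at the 5' end gave 1.12 to 1.22 for actin and 0.754 to 0.802 for Gapdh, a narrow range for both genes. Of 9 pro-B and B cell markers matched, 5 (Pax5, Ebf1, Vpreb1, Rag1 and Rag2) were below the floor on all arrays. Cd79a, Cd79b and Ptprc exceeded it on all 6, and Igll1 only on the IL3 arrays, at 21.5 and 21.1. Summed signals of the B cell markers ran from 725 to 1055, of which Ptprc alone was 606 to 892. Of 4 T cell markers, Cd3e, Cd4 and Cd8a were below the floor throughout and Cd3g exceeded it on the ETV6-PDGFRB arrays, at 21.9 and 20.5. Of 5 myeloid markers, Lyz2, Itgam and Mpo were below it throughout, while Csf1r (30.9 to 34.0) and Adgre1 exceeded it on all 6 arrays. Adgre1 read 61.4 and 46.2 in ETV6-PDGFRB, 269.8 and 173.7 in FIP1L1-PDGFRA, and 284 and 305 in IL3 cells. Of 7 mast cell markers, Cpa3 exceeded the floor on all 6 arrays and Hdc on 4, with Kit and the other 4 under it. Cpa3 read 814 and 1060 in ETV6-PDGFRB, 94.7 and 168 in FIP1L1-PDGFRA, and 166 and 164 in IL3 cells. Hdc was also highest in ETV6-PDGFRB, at 64.9 and 44.9. The erythroid markers Gata1 and Klf1 exceeded it on all 6, and Hba-a1 and Alas2 on none. Gata1 and Klf1 were higher on both imatinib-treated fusion arrays, and summed erythroid marker signals ran from 462 to 1590 over the arrays. The part of these markers in the values below was not tested.

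Of the 14 probe sets, 7 exceeded the floor on all 6 arrays, 5 on some and 2 on none. Egr1 was below it everywhere, with signals of 2.43 to 10.6, so it has no ratio and no test here. The other 9 genes were tested through 1 probe set each, that of greatest mean log2 signal.

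The RefSeq promoter table (GRCm38.p6) held 8 of the 10 genes. The 250 bases before the start site are printed for Fos, Junb and Ier3, which were lower with imatinib in the fusion lines, and for Jun and Btg2, which did not pass the test. Capitals mark matches, on either strand, to the cyclic AMP response element core TGACGT, the 8-letter element TGACNTCA, the AP-1 element TGANTCA, the EGR element GCGNGGGCG, the ETS core CCGGAA, the STAT element TTCNNNGAA, the TATA box TATAAA or the CArG box bound by SRF. TGACGT overlaps TGACNTCA where the latter reads TGACGTCA. The windows lie at chr12:85473640-85473889 on the plus strand (Fos), chr8:84978749-84978998 on the minus strand (Junb), chr17:35821463-35821712 on the plus strand (Ier3), chr4:95052223-95052472 on the minus strand (Jun) and chr1:134079156-134079405 on the minus strand (Btg2).
Fos: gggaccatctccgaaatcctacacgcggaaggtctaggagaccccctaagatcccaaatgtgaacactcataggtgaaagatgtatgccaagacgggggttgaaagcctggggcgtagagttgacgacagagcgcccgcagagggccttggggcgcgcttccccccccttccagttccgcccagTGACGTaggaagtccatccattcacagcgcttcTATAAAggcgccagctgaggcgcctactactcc
Junb: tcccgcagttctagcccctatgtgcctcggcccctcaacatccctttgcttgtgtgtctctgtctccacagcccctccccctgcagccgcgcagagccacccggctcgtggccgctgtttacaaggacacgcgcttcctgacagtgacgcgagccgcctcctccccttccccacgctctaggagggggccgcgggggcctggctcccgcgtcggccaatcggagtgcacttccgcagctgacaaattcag
Ier3: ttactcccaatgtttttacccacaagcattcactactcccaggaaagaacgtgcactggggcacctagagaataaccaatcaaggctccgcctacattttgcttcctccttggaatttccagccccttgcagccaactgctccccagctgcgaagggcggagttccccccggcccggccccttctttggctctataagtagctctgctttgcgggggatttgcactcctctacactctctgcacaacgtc
Jun: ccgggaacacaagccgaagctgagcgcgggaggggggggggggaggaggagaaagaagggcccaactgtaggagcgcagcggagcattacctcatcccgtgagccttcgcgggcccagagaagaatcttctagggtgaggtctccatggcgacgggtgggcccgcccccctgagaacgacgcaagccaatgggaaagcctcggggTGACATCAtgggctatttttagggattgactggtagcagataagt
Btg2: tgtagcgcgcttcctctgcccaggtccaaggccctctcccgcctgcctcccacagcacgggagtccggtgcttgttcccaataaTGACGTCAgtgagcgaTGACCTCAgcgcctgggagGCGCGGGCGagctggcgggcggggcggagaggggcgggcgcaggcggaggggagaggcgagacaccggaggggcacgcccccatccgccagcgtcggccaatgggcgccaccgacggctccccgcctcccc

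Counted back from the start site, Fos held the TGACGT core at -66 to -61 and a TATA box at -33 to -28. Jun held TGACATCA at -45 to -38, a variant of the 8-letter element. Btg2 held TGACGTCA at -166 to -159, TGACCTCA at -150 to -143 and the EGR element GCGCGGGCG at -131 to -123. Over all 32851 windows of this length in the table, 6.47% held TGACGT, 7.49% TGACNTCA, 6.75% TGANTCA, 4.7% the EGR element, 12.0% CCGGAA, 7.02% the STAT element, 12.4% the TATA box and 1.47% a CArG box. Among the 8 windows of these genes, 2 held TGACGT, 2 TGACNTCA, 1 the EGR element, 1 the TATA box and 0 any of the other letters. Bases outside the windows were not searched, so a count of 0, as for the CArG box, does not show that a gene lacks the element. Near forms were not counted either, such as tataag in the Ier3 and Ier5 windows. Of the genes that were called lower and have a window here, only Fos had a match: Junb, Ier3, Ier5 and Nab2 had none, and neither did Jund. A match is a description of letters and not a site of binding.

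With imatinib in the fusion lines, Junb, Ier2, Ier3, Ier5 and Nab2 fell, Fos went from above the floor to below it, and Jun, Jund and Btg2 did not pass the test. Ier2 fell 2.67-fold and Junb 2.06-fold over both lines, and Nab2 at least 2.62-fold; Fos was at least 2.44-fold lower. In IL3-grown vector cells given the same drug, 0 of 7 members with a ratio passed 2-fold. Of all genes there, 0.0599% were 2-fold lower and 0.0749% higher. Fos, Jun and Egr1 had no IL3 ratio, both IL3 arrays being under the floor. The fusion line statements rest on limma with the line as a block and both fusion lines used as repeats. Benjamini-Hochberg adjustment ran over 6808 genes, with a threshold of adjusted p under 0.05. In that fit 25.8% of all genes were called, 12.4% lower and 13.5% higher, against 6 members lower, Fos included, and 0 higher among the 9 tested. The median log2 change was -0.76 over these 9 and 0.04 over all genes tested. Fos entered the test only through its untreated fusion arrays, where it was high, so it could be called in no other direction and its p is not given. Jun entered only through the FIP1L1-PDGFRA arrays. The members and lists were chosen with earlier results of these data known, so the counts and medians here and below are a description. In bulk RNA such as this, fewer cells expressing a gene and less RNA per cell cannot be told apart. The p-values rest on how far the lines differ and on the IL3 pair, with no repeat cultures behind them, and where arrays of a fit lie at the floor the SE and p are too small, so no SE is given there.

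**Figure D1:**
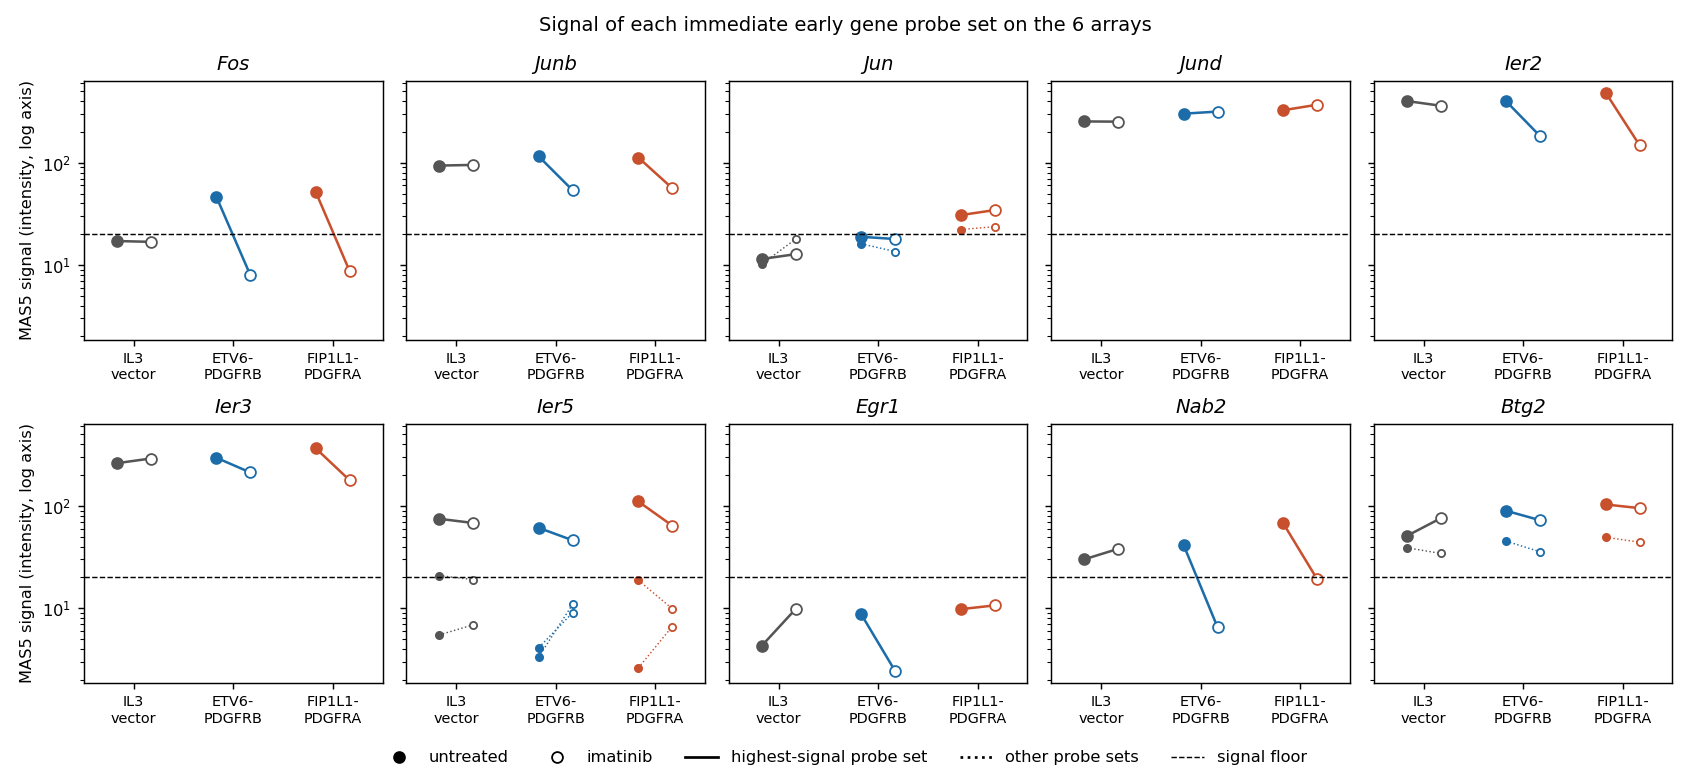
MAS5 signal (intensity, log axis) of the 14 probe sets of the 10 genes on the 6 arrays, by line, with filled points untreated, open points after imatinib, solid lines for the probe set with the highest mean signal and dotted lines for the others. The dashed line is the signal floor of 20.1; Fos, Junb, Ier2 and Nab2 drop in both fusion lines, Jund does not, and Egr1 lies under the floor on every array.

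Fos, whose product pairs with JUN proteins in the classical AP-1 dimer, was above the floor only on the untreated fusion arrays. Its signal was 46.7 in ETV6-PDGFRB cells and 8.04 after imatinib, and 51.6 and 8.69 in FIP1L1-PDGFRA cells, against 17.1 and 16.8 in IL3 cells. The untreated fusion arrays thus lay above all others, which were under the floor and have no order among them. The drop was at least 2.32-fold in ETV6-PDGFRB and at least 2.57-fold in FIP1L1-PDGFRA cells. As a bound, the size follows the floor: the fitted log2 change of -1.29 became -2.37 with the 40th percentile as floor and -0.21, no longer called, with the 60th.

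Junb encodes a JUN protein that is itself an early target of cytokine signals. ETV6-PDGFRB cells gave 115 untreated and 53.8 with the drug, and FIP1L1-PDGFRA cells 112 and 56.5; the signal was 93.8 and 95.2 in IL3 cells. The treated fusion arrays formed the low end, the IL3 arrays the middle and the untreated fusion arrays the high end. Within each of these pairs the arrays lay closer than 0.12 on the log2 scale. This is limma's SD in the fit of fusion against IL3 cells, which has no block for the line. Junb fell by 1.05 ± 0.09 on the log2 scale (SE, limma adjusted p = 0.00449), with 2.14-fold and 1.99-fold lower signals in the respective lines.

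Jun and Jund, the other JUN genes, did not pass. Jund, which encodes the JUN protein usually present at steady levels, gave 302 and 317 in the ETV6-PDGFRB line, 326 and 369 in FIP1L1-PDGFRA cells, and 253 and 252 in IL3 cells. Its log2 change was 0.12 ± 0.09 (limma adjusted p = 0.333), and the 95% interval of -0.10 to 0.35 leaves out a fall of the size seen for Junb. The sign of this small change turned to -0.11 when arrays were scaled to the hybridization controls. Jun exceeded the floor in FIP1L1-PDGFRA cells alone, at 30.7 and 34.4, and its second probe set did the same at 22.2 and 23.7. In ETV6-PDGFRB cells the first probe set read 18.9 and 17.9, just under the floor, and in IL3 cells 11.4 and 12.8. The Jun log2 change of 0.08 therefore rests on the FIP1L1-PDGFRA pair, and its p is not given. A fall in ETV6-PDGFRB cells could not have been seen, as both of those arrays were under the floor. With hybridization control scaling the Jun change was -0.056.

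Ier2, a nuclear protein gene of the early response, showed the widest fall of the IER genes. It read 398 untreated and 182 with the drug in ETV6-PDGFRB cells, and 483 against 148 in the FIP1L1-PDGFRA line, and was 402 and 361 in IL3 cells. Both treated fusion arrays lay below the other 4, which ran from 361 to 483. The drop was 2.19-fold and 3.26-fold, and over both lines Ier2 fell by 1.42 ± 0.16 on the log2 scale (limma adjusted p = 0.00767).

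Ier3, whose product is a target of ERK and has been tied to cell survival, gave 296 and 213 in the ETV6-PDGFRB line, 366 and 178 in FIP1L1-PDGFRA cells, and 262 and 291 in IL3 cells. The treated fusion arrays were again the lowest. The signal was 1.39-fold and 2.05-fold lower, and Ier3 fell by 0.76 ± 0.16 on the log2 scale (limma adjusted p = 0.0268). Ier5, a relative of Ier2 induced by growth signals and heat, read 61.0 and 46.1 in ETV6-PDGFRB cells, 111 and 64.3 in FIP1L1-PDGFRA cells, and 74.8 and 68.1 in IL3 cells. The untreated FIP1L1-PDGFRA array stood highest and the treated ETV6-PDGFRB array lowest. The other 4 lay between 61.0 and 74.8, so the treated FIP1L1-PDGFRA array overlapped untreated ones of other lines. Neighbours among these 4 were closer than 0.34 on the log2 scale, limma's SD in the fit of fusion against IL3 cells. That fit has no block for the line, and with the block the SD was 0.126. Ier5 fell by 0.59 ± 0.13 on the log2 scale (limma adjusted p = 0.0284), 1.32-fold and 1.72-fold in the respective lines. Of its other probe sets, the second exceeded the floor on 1 array only, at 20.8, and the third on none. The calls of Ier3 and Ier5 were lost when the 40th percentile was the floor and with the 4 fusion arrays alone, and that of Ier5 also with the mean of its probe sets.

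Nab2, the co-repressor gene of the EGR factors, fell in both lines although Egr1 lay under the floor. It read 41.2 untreated and 6.49 with the drug in ETV6-PDGFRB cells, and 67.5 against 19.2 in the FIP1L1-PDGFRA line, and was 30.0 and 38.0 in IL3 cells. Only the treated fusion arrays were under the floor, and the IL3 signal was 1.27-fold higher with the drug. In ETV6-PDGFRB cells the drop was at least 2.05-fold, in FIP1L1-PDGFRA cells at least 3.36-fold (limma log2 change -1.39 or lower, adjusted p = 0.0132). With a floor at the 60th percentile Nab2 was no longer tested.

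Btg2 was read by 2 probe sets above the floor on all arrays. The first gave 89.6 and 72.5 in ETV6-PDGFRB cells, 103 and 95.1 in FIP1L1-PDGFRA cells, and 50.8 and 75.6 in IL3 cells. The second gave 45.2 and 35.6, 49.4 and 44.2, and 39.0 and 34.4 in the same order. Both were slightly lower after imatinib in each fusion line, by 1.24-fold and 1.09-fold for the first and 1.27-fold and 1.12-fold for the second. They disagreed in IL3 cells, where the first was 1.49-fold higher after imatinib and the second 1.14-fold lower. The log2 change of the first was -0.21 ± 0.20 (limma adjusted p = 0.465, 95% interval -0.73 to 0.30). This fit has no term for imatinib in IL3 cells, so the 1.49-fold IL3 rise counts as spread and widens the interval. The second probe set did not show that rise. With this interval, neither an absent change nor a fall of the size seen for Ier5 can be told from the fit.

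**Figure D2:**
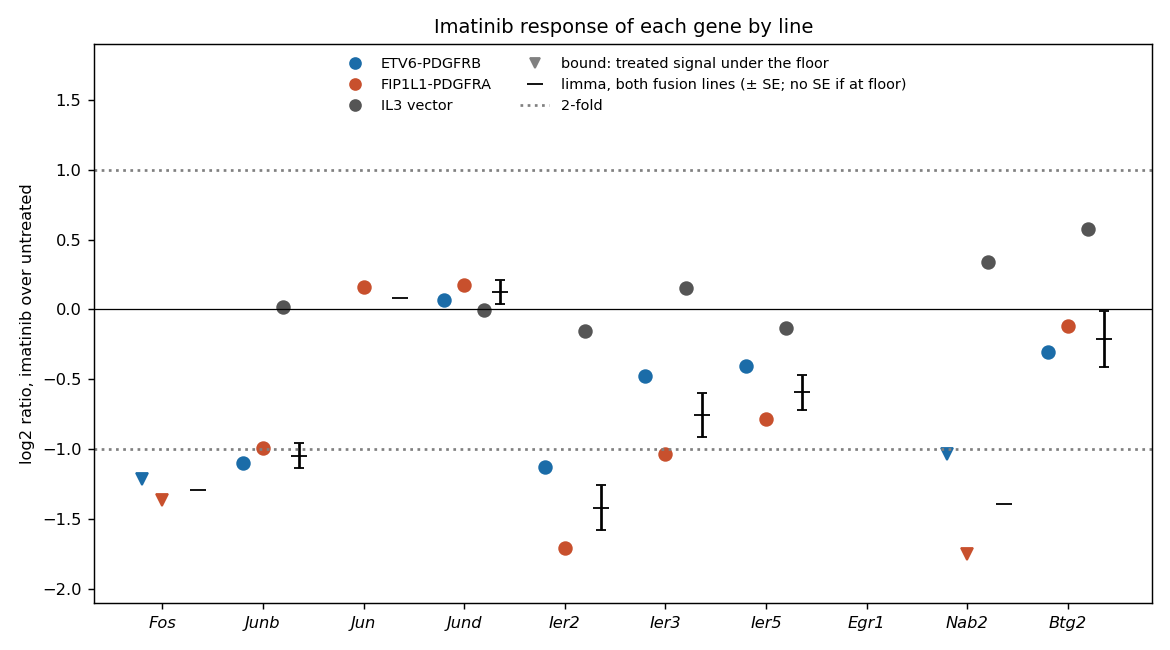
Log2 ratio of imatinib over untreated signal for each gene in ETV6-PDGFRB (blue), FIP1L1-PDGFRA (orange) and IL3 vector cells (grey), with triangles for bounds and black marks for the limma estimate over both fusion lines, with SE bars where no fusion array was at the floor. Fos, Junb, Ier2 and Nab2 lie near or beyond the lower dotted 2-fold line in both fusion lines. The IL3 points of Junb, Jund, Ier2, Ier3 and Ier5 run from -0.153 to 0.152, with Nab2 at 0.340 and Btg2 at 0.574. Fos and Jun have no IL3 point, and Egr1 has no ratio.

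Counted line by line with no test, 4 of 8 members with a ratio were at least 2-fold lower in ETV6-PDGFRB cells (Fos, Ier2, Junb and Nab2), where 2.86% of 6852 genes were. In FIP1L1-PDGFRA cells it was 4 of 9 (Fos, Ier2, Ier3 and Nab2), against 2.97% of 6743 genes, with Junb just inside the limit at 1.99-fold. No member was 2-fold higher in either line, where 1.61% and 2.19% of all genes were. Fos had a ratio only through its untreated fusion arrays, so it could be counted only as lower. In IL3 cells 0 of 7 members with a ratio passed 2-fold in either direction, where 0.0599% of 6674 genes were lower and 0.0749% higher. The median log2 ratio of the members was -0.76, -0.99 and 0.02 in ETV6-PDGFRB, FIP1L1-PDGFRA and IL3 cells, and that of all genes 0.03, 0.05 and 0.01.

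Whether the response differed between fusion and IL3 cells was tested as a contrast of its own, which leaves 1 residual degree of freedom. By limma 0 members and 0% of all genes passed. An unadjusted p below 0.05 was found for 6 members, Fos included, and 17.3% of all genes (1179). The log2 difference was -1.07 ± 0.19 for Junb (limma adjusted p = 0.175) and -1.26 ± 0.31 for Ier2 (adjusted p = 0.203). It was -0.91 ± 0.30 for Ier3 (limma adjusted p = 0.258) and -0.79 ± 0.20 for Btg2 (adjusted p = 0.212), the latter with a rise in IL3 cells that the second probe set did not show. With log2(signal + 16) in place of the floor, Junb, Ier2 and Nab2 passed. Fos did too, but it entered the test only through the arrays where it was high.

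Levels before treatment did not separate these genes from IL3 cells beyond the test's limit, apart from what the bounds allow for Fos. In untreated cells Fos exceeded the IL3 array at least 2.32-fold (ETV6-PDGFRB) and at least 2.57-fold (FIP1L1-PDGFRA), the IL3 array being under the floor. Btg2 was 1.76-fold and 2.03-fold higher by its first probe set (log2 0.92 ± 0.23, limma adjusted p = 0.586), but 1.16-fold and 1.27-fold by its second. Nab2 was 1.37-fold and 2.25-fold higher (log2 0.81, limma adjusted p = 0.895, from a fit with both treated fusion arrays at the floor). Ier2 was near the IL3 level, at 0.991 times it in ETV6-PDGFRB and 1.20 times in FIP1L1-PDGFRA cells. Of all genes 0.338% passed in this contrast, all of them higher in fusion cells, and 0 members did by limma. An unadjusted p below 0.05 was found for 2 members, Fos and the first probe set of Btg2, and 5.74% of all genes. Fos again entered only through the arrays where it was high. The lone IL3 array is assumed to vary as the fusion lines do.

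After imatinib, Ier2, Junb, Ier3, Nab2 and Ier5 lay under the level of IL3 cells given the same drug in both lines, and none of these differences passed the test. Ier2 was 1.98-fold lower in ETV6-PDGFRB and 2.44-fold lower in FIP1L1-PDGFRA cells (log2 -1.14 ± 0.22, limma adjusted p = 0.121). Junb was 1.77-fold and 1.69-fold lower (log2 -0.79 ± 0.15, limma adjusted p = 0.113), and Ier3 1.37-fold and 1.63-fold (log2 -0.58 ± 0.21, adjusted p = 0.227). Nab2 was at least 1.89-fold lower in both lines, and Ier5 1.48-fold and 1.06-fold (log2 -0.32 ± 0.42, limma adjusted p = 0.694). Jund went the other way, at 1.25 and 1.46 times the IL3 level (log2 0.44 ± 0.17, limma adjusted p = 0.251). Fos was under the floor on all 3 treated arrays. By limma 0 members and 0% of all genes passed, while 4 members and 21.3% of all genes (1447) had an unadjusted p below 0.05. The levels compared before and after imatinib come from different arrays. Both tests take the same SE for each gene from the same fit, so they are not independent of each other. Each also shares arrays with the tests of the response.

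**Figure D3:**
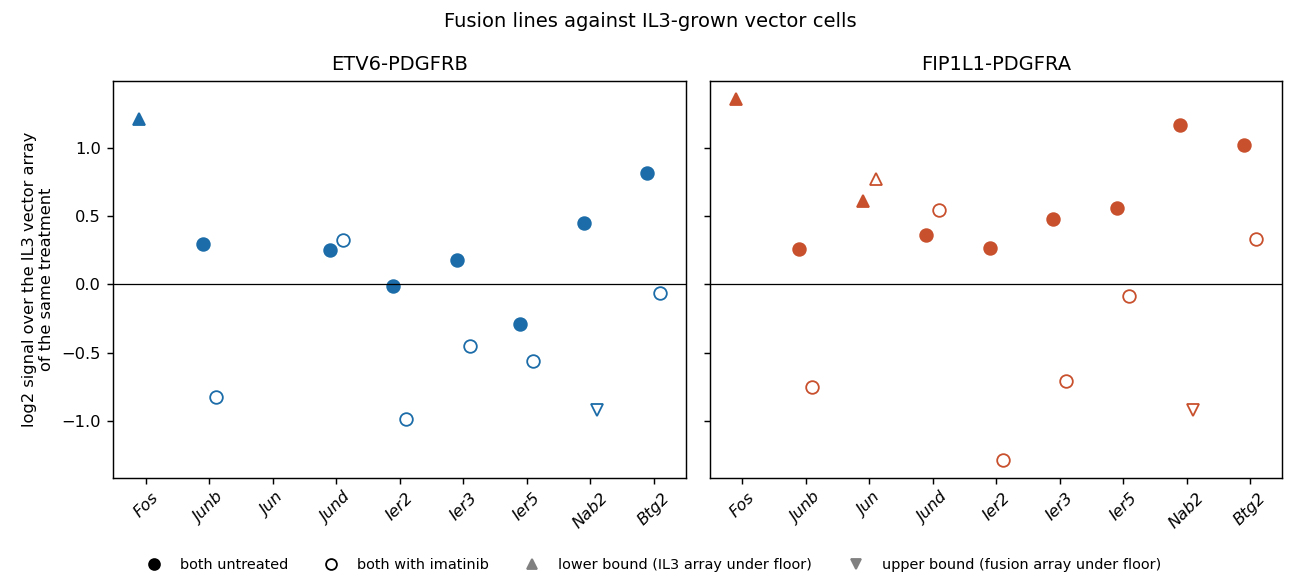
Log2 signal of each fusion line over the IL3 vector array of the same treatment for the 9 genes above the floor on some array, filled untreated and open with imatinib, with triangles for bounds. In both lines Junb, Ier2 and Ier3 move from near or above the IL3 level to below it, and Jund stays above it; missing points had both arrays under the floor.

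With either fusion pair left out, limma called 0 of the members and 0 of 6808 genes. With 1 fusion line left, a gene's own spread in this fit comes from the IL3 pair alone, so the fit cannot settle whether a call holds. The log2 change of Ier2 was -1.71 without the ETV6-PDGFRB pair and -1.13 without the FIP1L1-PDGFRA pair. In the full fit 42.7% of all genes had an unadjusted p below 0.05. The 6 calls, and those of the list genes named below, were also lost when genes at the floor were kept in the fit, so that 12393 genes were tested, though the 6 members then passed at an unadjusted p under 0.05.

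Other AP-1 and related genes moved both ways. Of 8 tested from a list of 15, 4 fell and 1 rose, with a median log2 change of -0.33. Of all genes tested, 12.4% fell and 13.5% rose. Fosl1, a FOS relative induced later than Fos, went from 40.5 to 9.99 and from 55.9 to 11.7 in the ETV6-PDGFRB and FIP1L1-PDGFRA lines (log2 -1.24 or lower, limma adjusted p = 0.00801), and it was 51.9 and 45.7 in IL3 cells. Unlike Fos, it was thus above the floor in IL3 cells, but with the 60th percentile as floor its change was -0.20 and the call was lost, and with the mean of its probe sets the change was -0.71. Batf2, an interferon-induced member counted among the 4, was above the floor only in untreated fusion cells, at 172 and 73.1, and was at 3.96 and 12.1 after imatinib (log2 -2.48 or lower); like Fos it entered the test only through the arrays where it was high, so no p is given. The small MAF genes Mafg and Mafk fell by 0.64 ± 0.10 and 0.65 ± 0.10 (limma adjusted p = 0.0132 and 0.014). Atf2, a partner of JUN, rose by 0.35 ± 0.08 (limma adjusted p = 0.038), a call lost with hybridization control scaling, the 40th percentile floor, the mean of its probe sets and the 4 fusion arrays, and Batf did not pass at 0.17 ± 0.16 (adjusted p = 0.459). Fosb, Atf3 and Maff, also early genes, were under the floor on every array.

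In the list of other EGR, NAB, BTG and TOB genes, 2 of 5 tested fell and 1 rose. The shares over all genes tested were 12.4% and 13.5%. Egr2 was above the floor only in untreated fusion cells, at 29.3 and 25.5, and 7.24 and 5.69 after imatinib (log2 -0.44 or lower); it is counted among the 2, but it too entered the test only through the arrays where it was high, so no p is given. Nab1, the relative of Nab2, fell by 0.52 ± 0.12 (limma adjusted p = 0.0353), a call lost with the 40th percentile floor and the 4 fusion arrays. Tob1, an antiproliferative gene of the BTG family, rose by 0.95 ± 0.16 (limma adjusted p = 0.0173), from 96.8 to 228 and from 79.2 to 125. Btg1 and Tob2 did not pass, at 0.36 ± 0.14 and -0.033 ± 0.13 (limma adjusted p = 0.108 and 0.863). Egr3, Egr4 and Ier5l were under the floor throughout.

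A list of 30 further immediate early genes had 15 tested, of which 6 fell and 1 rose while 8 gave no call. Over all genes tested, 12.4% fell and 13.5% rose. The median of the 15 was -0.39. Pim1, a survival kinase gene, and Myc changed most, by -2.03 ± 0.13 and -1.71 ± 0.12 on the log2 scale (limma adjusted p = 0.00311 and 0.00383). Zfp36, which encodes a protein that speeds the decay of early messages, fell by 0.62 (limma adjusted p = 0.0228, with both IL3 arrays at the floor), and Cited2 by 0.39 ± 0.09 (adjusted p = 0.0363). Both calls were lost with the 40th percentile floor and the 4 fusion arrays, and that of Cited2 also with the mean of probe sets. Klf10 rose by 0.88 ± 0.13 (limma adjusted p = 0.0125), from 60.3 to 129 and from 64.5 to 102. Zfp36l2 and Mcl1 did not pass, at -0.15 ± 0.09 and -0.40 ± 0.11 (limma adjusted p = 0.269 and 0.0575). Zfp36l2 passed with hybridization control scaling, and Mcl1 with that scaling, the 60th percentile floor, log2(signal + 16), the mean of probe sets or a variance trend. Another 13 genes of this list, among them Nr4a1, Klf2, Klf4 and Arc, were under the floor on every array.

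Srf itself, the factor through which serum signals reach Fos, Egr1 and Junb, fell by 1.37 ± 0.10 (limma adjusted p = 0.00373). It read 167 untreated in both fusion lines, 59.7 with the drug in ETV6-PDGFRB and 69.7 in FIP1L1-PDGFRA, and was 133 and 131 in IL3 cells. Of its ternary complex partners, Elk3 and Elk4 moved the other way, and Elk1 was not among the genes tested. Elk3 rose by 0.67 ± 0.11 (limma adjusted p = 0.0153) and Elk4 by 0.39 ± 0.09 (adjusted p = 0.0319), the latter call being lost with hybridization control scaling, the 40th percentile floor and the 4 fusion arrays. Crem, of the CREB family, fell by 0.75 ± 0.09 (limma adjusted p = 0.0087). In all, 2 of 6 tested genes of this list fell and 2 rose, against 12.4% and 13.5% of all genes tested.

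**Figure D4:**
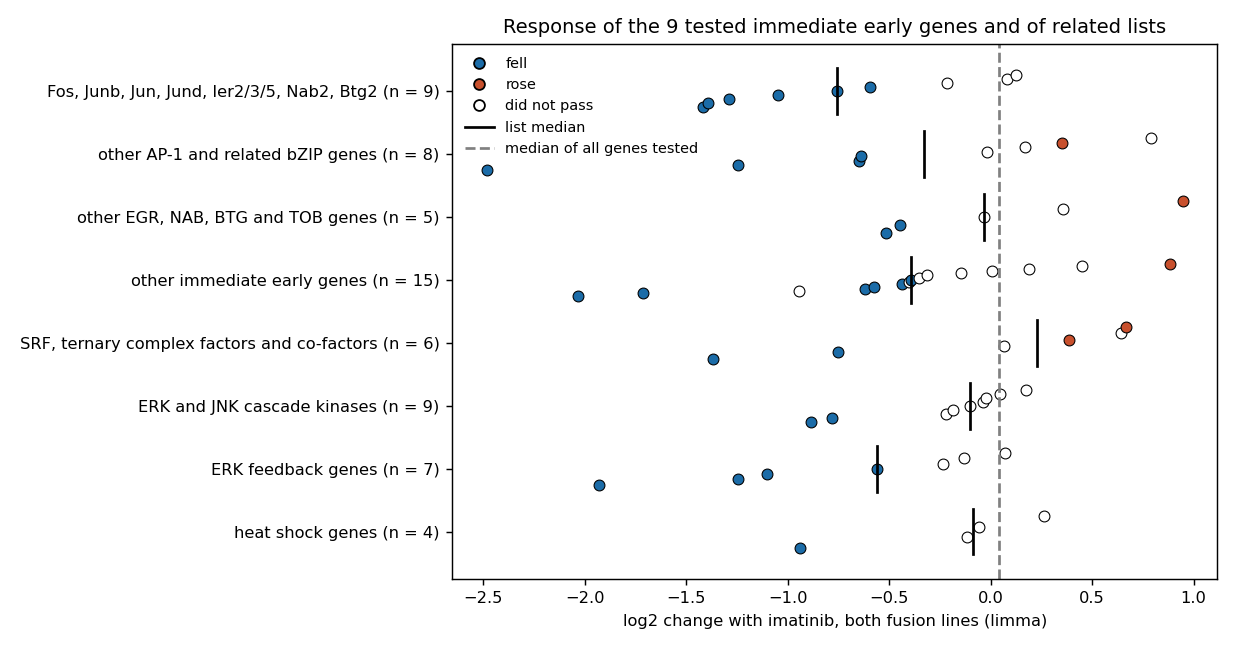
Log2 change with imatinib over both fusion lines (limma) for the 9 tested immediate early genes and for each tested gene of 7 related lists, coloured by call, with black bars for list medians and a dashed line for the median of all 6808 genes. The 9 genes have a median of -0.76, other AP-1 genes -0.33, other immediate early genes -0.39 and heat shock genes -0.09.

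By distance between log2 signals centred over the 6 arrays, the genes most like Ier2 were Fgl2, which encodes a fibrinogen-like protein (distance 0.14), and Spred1, an inhibitor of the ERK pathway (0.25), among 6515 genes that exceeded the floor on 4 arrays or more. Fgl2 read 268 and 119, 327 and 99.5, and 258 and 264 in ETV6-PDGFRB, FIP1L1-PDGFRA and IL3 cells. The nearest to Junb were Cdkn1a, which encodes the cell cycle inhibitor p21 (0.19), and AU020206 (0.21), and the nearest to Ier3 were Hhex (0.17) and Stk40 (0.19). Those nearest to Ier5 were Lin7c (0.21) and Slc1a4 (0.22), and to Jund Zranb1 (0.10) and Stk19 (0.12). The nearest to Nab2 were Il15ra (0.40, Pearson r = 0.976) and Arid5a (0.41, r = 0.969). The distance is not scaled, so it grows with the size of a gene's changes. Btg2 lay nearest to Ppp1r15a (0.27), another early gene, and Plekhf2 (0.33).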

How the data were processed

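Total RNA (5 µg) from each of the 6 cultures was labelled and hybridised to 1 Affymetrix array. Per the submitters' processing notes, the authors used GCOS 1.4.0 and MAS5 to make the deposited intensity values. The sources used here do not give detection calls, background settings or a genome build. The members, lists and tests were chosen with earlier results of these data known.

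Gene names came from the platform table, in which 20393 probe sets had 1 symbol, 691 several and 1606 none. For a gene with several probe sets, that of highest mean log2 signal was used. Signals were set to the floor of 20.1 before taking log2, and the 6808 genes above it on at least 2 arrays were tested in limma 3.58.1 (R 4.3.3). These contrasts were fitted: imatinib in fusion cells with the line as a block, its difference from the IL3 pair, and fusion against IL3 cells without and with imatinib. The imatinib fit was also run on simulated data, with the same gene mean in each line and the spread of the IL3 pair. That setting leaves out differences between lines and the floor, so it does not test the p-values given here. The text names every member, and from each list up to 3 tested genes of highest mean signal, plus the called ones, or the 4 with the largest change where more than 4 were called. Summaries used Python 3.11.15. Floors, scaling, probe set choice, the filter and left-out lines were varied.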

Additional observations from a re-analysis of the deposited data

How the results depend on the processing

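For imatinib in fusion cells the number of members called, 6, was 4 to 6 under the other floors, log2(signal + 16), other scalings, the mean of probe sets, a variance trend, the 4 fusion arrays and probe sets tested singly, the last added after seeing the data. It was 0 with no filter and 0 to 0 with a fusion pair left out. Over all genes, 1757 calls became 107 with no filter, 889 with the 4 fusion arrays and 0 with a pair left out. The member count of the response difference, 0, became 4, Fos included, with log2(signal + 16). All genes called became 296 there, 10 with the 60th percentile as floor and 17 with a trend. For untreated cells the 23 calls became 0, 1, 59, 48, 13, 4 and 34 with the floors at the 40th and 60th percentile, log2(signal + 16), no filter, the mean of probe sets, single probe sets and hybridization controls, and for treated cells 0 became 93 with log2(signal + 16) and 58 with no filter. Members past 2-fold fell from 4 to 2 in each fusion line when the 60th percentile was the floor.

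Scaling to the hybridization controls moved the median log2 ratio of all genes from 0.03 to -0.16 in ETV6-PDGFRB and from 0.05 to -0.22 in FIP1L1-PDGFRA cells, and the share of calls that were lower from 47.9% to 83.2%; the 6 members kept their calls. It turned the imatinib change of Jun to -0.056, Jund to -0.11, Batf to -0.065 and Rps6ka3 to -0.063, the response difference of Jun to -0.056 and of Jund to -0.10, and the treated level of Btg2 against IL3 to -0.028. Jun's response difference also became -0.11 with the 40th percentile floor and -0.032 with log2(signal + 16). Quantile normalization turned Map2k2 to 5.65e-04, and the mean of probe sets turned Rps6ka3 to -0.031 and the untreated level of Ier5 to -0.026. With a fusion pair left out, the change ranged from -0.13 to 0.47 for Batf, from -0.17 to 0.052 for Hspa8 and from -0.19 to 0.13 for Tob2. The cause was not tested, and none of the values that changed sign here passed. Leaving out a fusion pair left no residual degree of freedom for the comparisons of fusion with IL3 cells, which were not run that way. The imatinib fit is paired by line, and the labels number no replicates. Signals near the floor limit Fos, Jun, Nab2 and Egr1, and of the list genes Fosl1, Batf2, Egr2, Dusp7 and Zfp36.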

Other observations

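The kinases upstream of these genes were read from a list of 17, of which 9 were tested. Of these, 2 fell and 0 rose, against 12.4% and 13.5% of all genes tested. Map2k1, which encodes the ERK kinase MEK1, fell by 0.78 ± 0.11 on the log2 scale (limma adjusted p = 0.012), with signals of 304 and 158 in the ETV6-PDGFRB line and 323 and 211 in the FIP1L1-PDGFRA line, and was 251 and 241 in IL3 cells. Map2k4, a kinase of the JNK branch that acts on JUN, fell by 0.88 ± 0.10 (limma adjusted p = 0.00737). The other 7 did not pass, among them Map2k2 at -0.022 ± 0.09 and Rps6ka3 at 0.17 ± 0.11 (limma adjusted p = 0.868 and 0.277).

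Among ERK feedback genes, 4 of 7 tested fell and 0 rose, where 12.4% of all genes fell and 13.5% rose. Dusp6, the ERK phosphatase gene, fell by 1.93 ± 0.20 (limma adjusted p = 0.00695), Spred1 by 1.25 ± 0.11 (adjusted p = 0.00478) and Spred2 by 1.10 ± 0.09 (adjusted p = 0.00449), and Dusp7 reached the floor after imatinib (-0.56 or lower, adjusted p = 0.036). With the mean of probe sets Spred2 was at -0.44 and Dusp7 at -0.23, where the call of Dusp7 was lost, as it was with the 4 fusion arrays. Of 4 heat shock genes tested, Hsph1 fell by 0.94 ± 0.24 (limma adjusted p = 0.0468), a call lost with the 40th percentile floor, the 4 fusion arrays and single probe sets. The abundant Hspa8, Dnajb1 and Hsp90aa1 did not pass, at -0.059 ± 0.11, 0.26 ± 0.09 and -0.12 ± 0.10 (limma adjusted p = 0.712, 0.0978 and 0.391). With the mean of its probe sets Hspa8 was at -0.53 and passed (limma adjusted p = 0.0223), and Dnajb1 passed with a variance trend (adjusted p = 0.047). Hspa1a and Hspa1b were under the floor on every array.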
